A study of Saccharomyces cerevisiae with 12 samples.

Results

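The 10 genes described here carry out the use of proline, glutamate and ammonium in budding yeast: PUT1, PUT2, PUT4, GDH1, GDH2, GDH3, GLN1, GLT1, GAP1 and MEP2. They were picked by their ORF names, YLR142W, YHR037W, YOR348C, YOR375C, YDL215C, YAL062W, YPR035W, YDL171C, YKR039W and YNL142W, and all 10 are among the 6174 ORFs of the arrays. The choice was made with results of the tet strain without over with doxycycline in view, where PUT1 and GDH2 were among the highest ORFs, so values of that comparison are given as a description with no test. The study asked how expression depends on the forkhead transcription factor Hcm1, and measured it as log2 ratios on 12 2-colour arrays, 2 dye-swapped arrays for each of 6 comparisons. The number of arrays limits the precision of every value.

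All strains derive from CML128, a MATa strain with mutant alleles of URA3, HIS4, LEU2 and TRP1, and grew at 30 °C in rich YPD medium to an A600 of 0.5. HCM1 itself was altered in 3 comparisons. The first set the deletion strain MJRC05 (hcm1::natMX4) over the wild type CML128. The second set the tet strain MJRC07, in which tetO7 drives HCM1-3HA (kanMX4), over its parent, the tagged strain GRB2405, in which HCM1-3HA (natMX4) keeps its own promoter. The third set MJRC07 without doxycycline over MJRC07 treated for 10 h, since doxycycline represses the tet promoter. The other 3 were controls: GRB2405 over CML128, and GRB2405 treated with doxycycline, for either 4 h or 10 h, over untreated GRB2405. The labels do not say how many clones or cultures stand behind a strain. Doxycycline was present in the denominator of the third comparison and in the numerator of both doxycycline controls.

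Proline enters yeast cells mainly through the permease Put4 and is oxidised in mitochondria by Put1 and then Put2 to glutamate. Gdh2 breaks glutamate down to 2-oxoglutarate and ammonium with NAD, while Gdh1 and its paralogue Gdh3 make glutamate from the same pair with NADPH. Gln1 joins ammonium to glutamate to give glutamine, Glt1 turns glutamine and 2-oxoglutarate back into glutamate, Gap1 imports most amino acids and Mep2 imports ammonium. In media with good nitrogen sources, GAP1, MEP2 and the PUT genes are held low by nitrogen catabolite repression, which acts through GATA factors such as Gln3 and Gat1, and Put3 activates PUT1 and PUT2 when proline is present.

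Each array was centred on its median. The arrays held 2520 to 6174 ORFs, and each held 8 to 10 of the 10 genes. The 2 arrays of a comparison correlated with a Pearson r of 0.53 to 0.76, except for the tagged strain over wild type, where the 2 columns mirror each other (r = -0.999). Only the first of these was used, and its sign is not settled. The HCM1 signal followed the labels, at -3.55 and -3.18 in the deletion, 5.31 and 5.02 in the tet strain over its parent, and 5.79 and 5.51 in that strain without over with doxycycline. In the tagged strain HCM1 stood at 0.50 on the 1 array that measured it after 4 h of doxycycline, and at 1.37 and 0.68 after 10 h. Values below are log2 ratios of the first-named over the second-named strain or condition, given for the arrays labelled Exp 1 and Exp 2, in that order, with the mean ± SD (n = 2 arrays). The 2 arrays of a comparison were counted as 1 replicate. Tests are limma on 1 value per comparison with the control comparisons as the residual, Benjamini-Hochberg adjusted over all ORFs tested. That residual is the size of the control log2 ratios around 0. It holds any effect of the tag or of doxycycline beside the spread between single RNA pairs. P-values thus do not measure that spread alone. HCM1 itself did not pass in the deletion (limma, adjusted p = 0.9997, unadjusted p = 5.67e-04) or in the tet strain over its parent (adjusted p = 0.0560). A gene that did not pass is thus not shown to be unchanged. In RNA of whole cultures, a change per cell and a change in the share of cells that express a gene cannot be told apart.

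**Figure D1:**
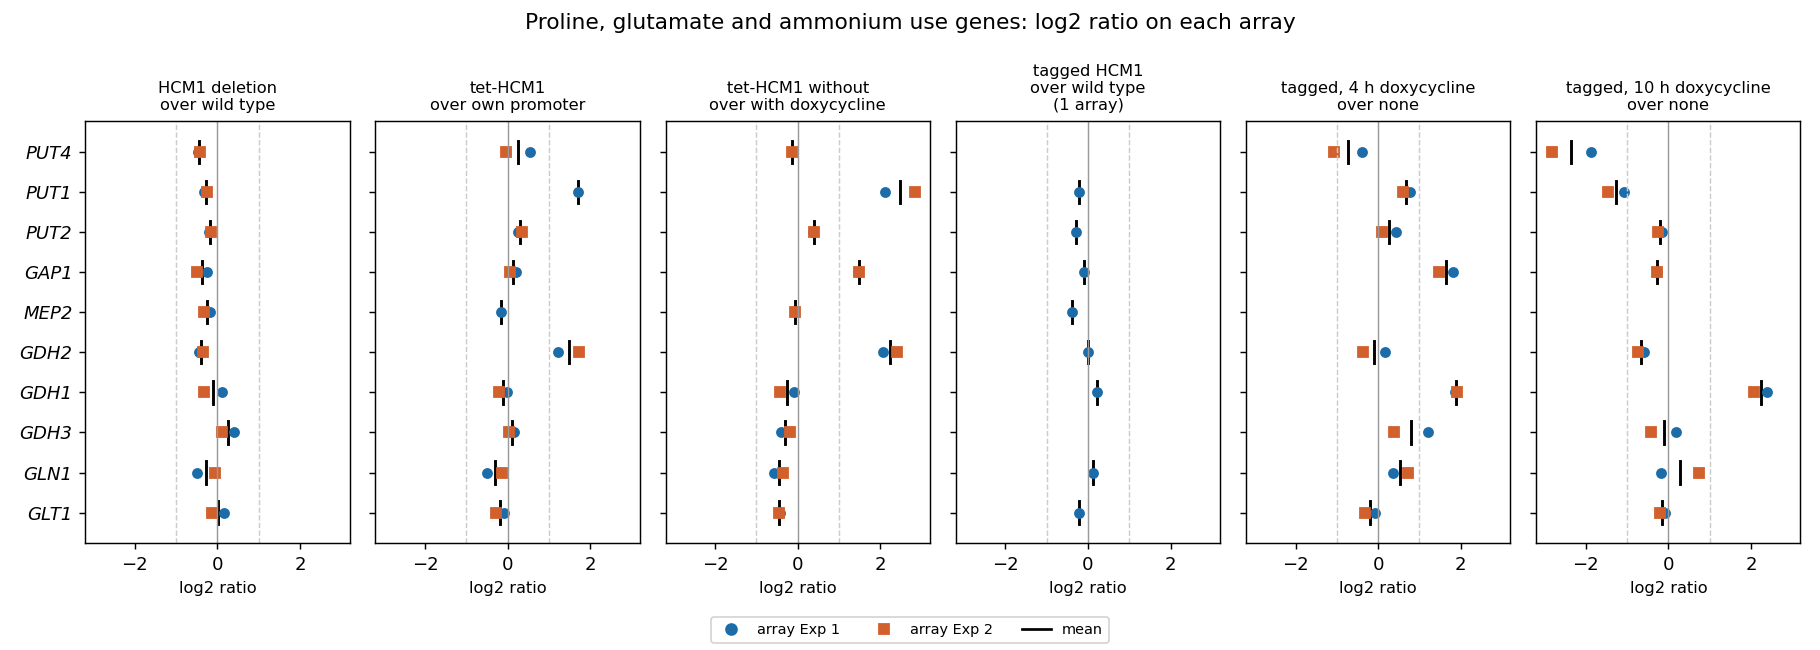
Log2 ratio (x axis) of each of the 10 genes (rows) in the 6 comparisons (panels). Circles are arrays labelled Exp 1, squares arrays labelled Exp 2, black bars the mean (or the 1 value measured), and dashed lines mark 2-fold. PUT1, GDH2 and GAP1 lie right of the upper line in tet-HCM1 without over with doxycycline, and GDH1 lies right of it on both arrays at 4 h and at 10 h of doxycycline.

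PUT1, the proline oxidase gene, had the widest range of the proline genes. In the tet strain over its parent it was measured on 1 array, at 1.69, so it could not be tested there. Without over with doxycycline in the tet strain it stood at 2.11 and 2.83 (2.47 ± 0.50, 5.54-fold), rank 3 of 4307 ORFs measured on both arrays. In the deletion it stood at -0.32 and -0.25 (-0.29 ± 0.05), 1.22-fold lower, and did not pass the test (limma, adjusted p = 1.00). The PUT1 values more than 2-fold higher thus all came from arrays with untreated tet-strain cells in the numerator.

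In tagged cells PUT1 also differed with doxycycline. After 4 h it stood at 0.77 and 0.60 (0.68 ± 0.13; limma, adjusted p = 0.993), and after 10 h at -1.07 and -1.45 (-1.26 ± 0.27, 2.39-fold lower), where it fell (limma, adjusted p = 0.0261). Of all ORFs tested at 10 h, 5.54% passed as lower. The call of PUT1 was lost on the Exp 1 array alone (adjusted p = 0.143), with the 2 mirrored tagged columns averaged (0.149), without the tagged control (0.127) and where 1 control value was enough (0.0630). It held in 8 of 12 alternatives, with adjusted p from 5.09e-04 to 0.149 (limma). These count the fits that take each array as its own sample. The lowest came from such a fit with the array number also fitted, where 28.9% of ORFs passed as lower. Both 10 h arrays were below 0 and both 4 h arrays above it. In the tagged strain over wild type PUT1 was at -0.22 by the first column and at 0.21 by the second.

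PUT2, which encodes the dehydrogenase of the step after Put1, had smaller values. It stood at 0.25 and 0.34 (0.29 ± 0.07) in the tet strain over its parent and at 0.38 and 0.40 (0.39 ± 0.02) without over with doxycycline. In the deletion it stood at -0.21 and -0.16 (-0.18 ± 0.03). After 4 h of doxycycline it was at 0.42 and 0.10 (0.26 ± 0.23) and after 10 h at -0.15 and -0.24 (-0.20 ± 0.06). The signs of PUT2 were those of PUT1 in every comparison that measured both, the tagged array included. The means of PUT2 were at most 1.31-fold in size, and it passed no test (limma, adjusted p from 0.839 to 1.00 in the 5 comparisons tested).

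PUT4, the proline permease gene, did not share the high values of PUT1 in the tet strain. It was at 0.55 and -0.05 (0.25 ± 0.42) in the tet strain over its parent, where the arrays lay on either side of 0, and at -0.13 on the 1 array that measured it without over with doxycycline. In the deletion it stood at -0.48 and -0.43 (-0.46 ± 0.03; limma, adjusted p = 1.00), the lowest of the 10 genes there. Its low values came with doxycycline in the tagged strain, at -0.40 and -1.07 (-0.73 ± 0.47) after 4 h and at -1.88 and -2.81 (-2.35 ± 0.66, 5.09-fold lower) after 10 h, rank 33 from the bottom of 2312 ORFs. PUT4 had no value on the tagged array and so had too few control values for the test. With 1 control value enough, its adjusted p at 10 h was 8.91e-04 (limma), where 106 of 2246 ORFs passed as lower. The adjusted p was at most 0.00153 in the 4 alternatives that tested it, which are not independent of each other. They rested on its 4 h value as the only control, or took each array as its own sample. With arrays as samples 859 of 2312 ORFs passed, or 1364 of 2307 with the array number also fitted.

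GDH2, the gene of the glutamate dehydrogenase that breaks glutamate down, was high beside PUT1 in the tet strain. In the tet strain over its parent it stood at 1.23 and 1.73 (1.48 ± 0.35, 2.78-fold), rank 17 of 3955 ORFs. It was the only one of the 8 genes measured on both arrays there that was at least 2-fold higher on both, against 1.16% of all ORFs. It did not pass the test (limma, adjusted p = 0.816, unadjusted p = 0.00575). This comparison shares untreated tet-strain cells in the numerator with the one used for the choice, so it is not independent of that choice. Without over with doxycycline GDH2 stood at 2.07 and 2.41 (2.24 ± 0.24, 4.73-fold), rank 8 of 4307 ORFs.

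In the other comparisons GDH2 stayed under 2-fold. It was at -0.44 and -0.35 (-0.40 ± 0.07) in the deletion (limma, adjusted p = 1.00) and at 0.01 on the tagged array. In tagged cells after 4 h of doxycycline the arrays lay on either side of 0, at 0.16 and -0.37 (-0.10 ± 0.37). After 10 h both were below it, at -0.59 and -0.73 (-0.66 ± 0.10; limma, adjusted p = 0.341). The deletion and the tet promoter thus had opposite signs for GDH2 and GAP1, on both arrays of each, and for PUT1 and PUT2 on each array with a value. By contrast GLN1 was below 0 and GDH3 above 0 on both arrays of each, and MEP2 was below 0 on each array with a value. The share of all ORFs with opposite signs was not counted. None of these values passed the test, and whether the 2 comparisons differ was not tested.

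GAP1, the general amino acid permease gene, was high in 2 comparisons. Without over with doxycycline in the tet strain it stood at 1.47 and 1.49 (1.48 ± 0.02, 2.79-fold). In tagged cells after 4 h of doxycycline it was at 1.81 and 1.48 (1.64 ± 0.24, 3.12-fold), rank 7 of 2495 ORFs, and after 10 h at -0.28 on each array (-0.28 ± 0.00). Unlike GDH2, it was near 0 in the tet strain over its parent, at 0.21 and 0.06 (0.13 ± 0.10). In the deletion GAP1 stood at -0.26 and -0.48 (-0.37 ± 0.16). It passed no test (limma, adjusted p = 0.993 at 4 h and 0.775 at 10 h). Without the 10 h control in the residual the adjusted p at 4 h was 9.11e-05, and over all alternatives it ran from 3.81e-05 to 0.999 there. The lowest came from a fit with each array as its own sample and the array number fitted, where 23.3% of ORFs passed as higher.

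MEP2, the ammonium permease gene, was measured least often. It was at -0.19 and -0.31 (-0.25 ± 0.09) in the deletion, and 1 array each gave -0.15 in the tet strain over its parent, -0.07 without over with doxycycline and -0.38 in the tagged strain over wild type. Neither doxycycline comparison of the tagged strain had a value for it. By the second column the last of these was 0.40. The other values of MEP2 were all below 0, at most 1.19-fold in size by the mean of a comparison, and none had enough control values for the test.

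GDH1, which encodes the main glutamate-making dehydrogenase, had the highest values of the 10 genes with doxycycline in tagged cells. It stood at 1.87 and 1.91 (1.89 ± 0.02, 3.70-fold) after 4 h, rank 3 of 2495 ORFs, and at 2.39 and 2.07 (2.23 ± 0.22, 4.70-fold) after 10 h, rank 5 of 2312. It rose at 10 h (limma, adjusted p = 5.26e-05), where 5.29% of all ORFs tested passed as higher. That call was lost with the 2 tagged columns averaged (adjusted p = 0.242) and with a robust fit (0.206), and held in 11 of 13 alternatives (3.01e-09 to 0.242). The alternatives count the fits that take each array as its own sample. At 4 h it did not pass (limma, adjusted p = 0.993). The residual at 4 h holds the 10 h value of the same gene, and the residual at 10 h holds its 4 h value. The standard error of the fit was 0.877 at 4 h and 0.429 at 10 h. Without the 10 h control in the residual the adjusted p at 4 h was 2.15e-06, where 69 of 1981 ORFs passed.

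GDH1 did not stand out where HCM1 itself was altered. It was at 0.10 and -0.32 (-0.11 ± 0.30) in the deletion and at -0.01 and -0.21 (-0.11 ± 0.14) in the tet strain over its parent. In the tet strain without over with doxycycline it stood at -0.10 and -0.43 (-0.26 ± 0.24), so the 10 h doxycycline cells of that strain were above the untreated ones by 1.20-fold, against 4.70-fold in the tagged strain. GDH3, its paralogue, was at 1.20 and 0.38 (0.79 ± 0.58) after 4 h of doxycycline and at 0.20 and -0.42 (-0.11 ± 0.43) after 10 h. Its means lay between -0.30 and 0.25 in the 3 HCM1 comparisons, and it had no value on the tagged array. Probe sequences were not used here, so cross-hybridisation between the 2 paralogues cannot be told apart from their own signals.

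The means of the assimilation genes GLN1 and GLT1 were at most 1.45-fold higher or lower in every comparison. GLN1, of glutamine synthetase, was at -0.50 and -0.07 (-0.29 ± 0.31) in the deletion, -0.49 and -0.13 (-0.31 ± 0.25) in the tet strain over its parent, and -0.57 and -0.36 (-0.46 ± 0.15) without over with doxycycline. With doxycycline in the tagged strain it stood at 0.35 and 0.72 (0.54 ± 0.26) after 4 h, and at -0.19 and 0.75 (0.28 ± 0.66) after 10 h, where the arrays lay on either side of 0. GLT1, of glutamate synthase, ranged from -0.44 (without over with doxycycline, -0.44 and -0.45 on the arrays) to 0.00 (deletion). Neither gene passed a test (limma, adjusted p from 0.761 to 1.00 in the 5 comparisons tested).

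**Figure D2:**
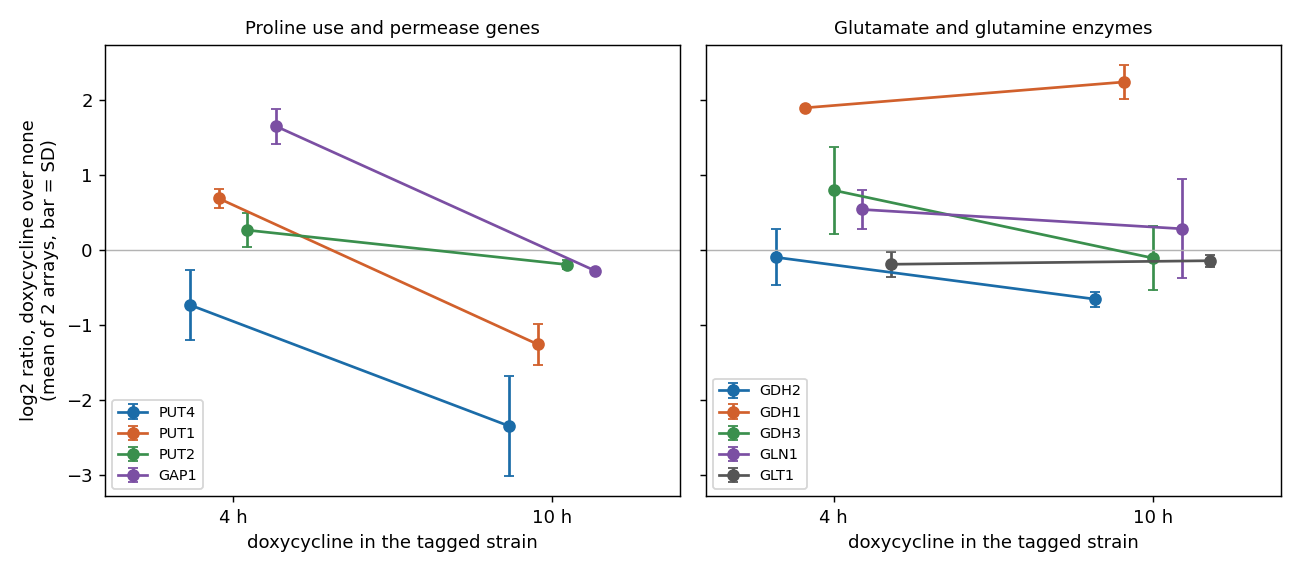
Log2 ratio of doxycycline over none in the tagged strain after 4 h and 10 h (y axis; points are means of 2 arrays and bars the SD). PUT1 and GAP1 lie above 0 at 4 h and below it at 10 h, PUT4 lies below 0 at both times, and GDH1 lies at 1.89 and 2.23; MEP2 had no value here.

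Over the 10 genes together, the deletion gave no 2-fold values. All 10 were measured there, between -0.46 (PUT4) and 0.25 (GDH3), 8 lower and 2 higher, with a median of -0.27 against -0.01 over all ORFs. None was 2-fold lower on both arrays, against 1.53% of all ORFs, and none of the 9 tested passed. Of 2538 ORFs tested, HCM1 among them, 0 passed in all, with 26 at an unadjusted p below 0.05. None of the 10 lies on chromosome IX, where 187 of 193 measured ORFs were lower in the deletion, with a median of -0.92 against 0.01 elsewhere. In the tet strain over its parent the 8 genes measured on both arrays had a median of 0.12, 5 higher and 3 lower, against -0.01 over all ORFs. That median did not keep its sign on single arrays, at 0.18 on Exp 1 and -0.0064 on Exp 2. None of the 8 was 2-fold lower on both arrays, against 0.531% of all ORFs. None of them passed, as 0 of 2435 ORFs did, with 113 at an unadjusted p below 0.05.

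Without over with doxycycline in the tet strain, 3 of the 8 genes measured on both arrays (PUT1, GDH2 and GAP1) were at least 2-fold higher on both, and 3.2% of all ORFs were; the choice of the genes used this comparison. None was 2-fold lower, and 2.16% of all ORFs were. The limma test passed 0.0403% of ORFs as higher, which was HCM1 alone, and none as lower. The median of the 8 was 0.06, with 4 higher and 4 lower. By the first column for the tagged strain over wild type, the 8 genes measured lay between -0.38 (MEP2) and 0.22 (GDH1), with a median of -0.16 that is 0.16 by the second column. None was 2-fold changed, against 0.0301% of all ORFs higher and 0.301% lower (0.306% and 0.0306% by the second column), and 0 of 7 tested passed; 0 of 1644 ORFs did, with 2 at an unadjusted p below 0.05. The highest and lowest of the 10 genes were thus further apart in the tet and doxycycline comparisons than here.

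After 4 h of doxycycline the 9 genes measured had a median of 0.54, 6 higher and 3 lower, against 0.04 over all ORFs. GDH1 and GAP1 were at least 2-fold higher on both arrays, against 1.08% of all ORFs, and none of the 9 was 2-fold lower on both, against 1.76%. After 10 h the median was -0.20, with 2 higher and 7 lower. PUT1 and PUT4 were at least 2-fold lower on both arrays, against 6.66% of all ORFs, and GDH1 at least 2-fold higher, against 2.81%. The limma test passed 1 of 7 genes higher (GDH1) and 1 lower (PUT1) at 10 h, against 5.29% and 5.54% of the 1644 ORFs tested. It passed 0 of 7 at 4 h, where 0 of 1644 ORFs passed and 42 had an unadjusted p below 0.05. PUT1, PUT2 and GAP1 were above 0 on both 4 h arrays and below 0 on both 10 h arrays. The mean of GDH3 also changed sign, with its 10 h arrays on either side of 0. Both comparisons have untreated tagged cells in the denominator, and the difference between the times was not tested.

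The arrays labelled Exp 1 and Exp 2 have opposite dye orientation. With each array taken as its own sample and this number as a replicate block, spread between the 2 arrays of a comparison forms the residual, and many more ORFs passed. That spread is technical alone if both arrays carry the same RNA, which the labels do not say. In that fit GDH2 passed as higher in the tet strain over its parent (limma, adjusted p = 2.82e-04; 13.4% of ORFs passed as higher and 10.9% as lower), and GAP1 as lower in the deletion (0.0406; 13.1% lower and 6.85% higher). At 4 h of doxycycline GDH1, GAP1, GDH3, GLN1 and PUT1 passed as higher and PUT4 as lower (adjusted p from 2.29e-05 to 0.0180; 23.3% of ORFs higher and 16.8% lower). At 10 h PUT4, GDH2 and GAP1 passed as lower beside PUT1, and GDH1 as higher (1.57e-06 to 0.0388; 28.9% of ORFs lower and 30.3% higher). In the tagged strain over wild type 0 of 7 genes passed, as did 0.123% of ORFs, all lower.

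The tet strain and the tagged strain were both compared with and without 10 h of doxycycline, so the 2 log2 ratios, which run in opposite directions, sum to 0 for a gene that doxycycline moves equally in both. PUT1 stood at 2.47 in the tet strain without over with doxycycline and at -1.26 in the tagged strain with doxycycline over none, with a sum of 1.21. For GDH2 the values were 2.24 and -0.66 with a sum of 1.58, and for GAP1 1.48 and -0.28 with a sum of 1.20. The sum of GDH1 was the highest of the 8 genes, at 1.97, and came from the tagged strain's 2.23 rather than the tet strain's -0.26. PUT2 had a sum of 0.19, and GLN1, GDH3 and GLT1 had -0.18, -0.41 and -0.59. Over all 2207 ORFs with both values, 97.6% had a sum below that of GDH1, 95.0% below GDH2, 89.8% below PUT1 and 89.5% below GAP1, and 53.4% below PUT2; the tet-strain term of the sum is the comparison the choice of the genes used. PUT4 was low after 10 h in the tagged strain but near 0 on the 1 array of the tet strain that measured it.

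**Figure D3:**
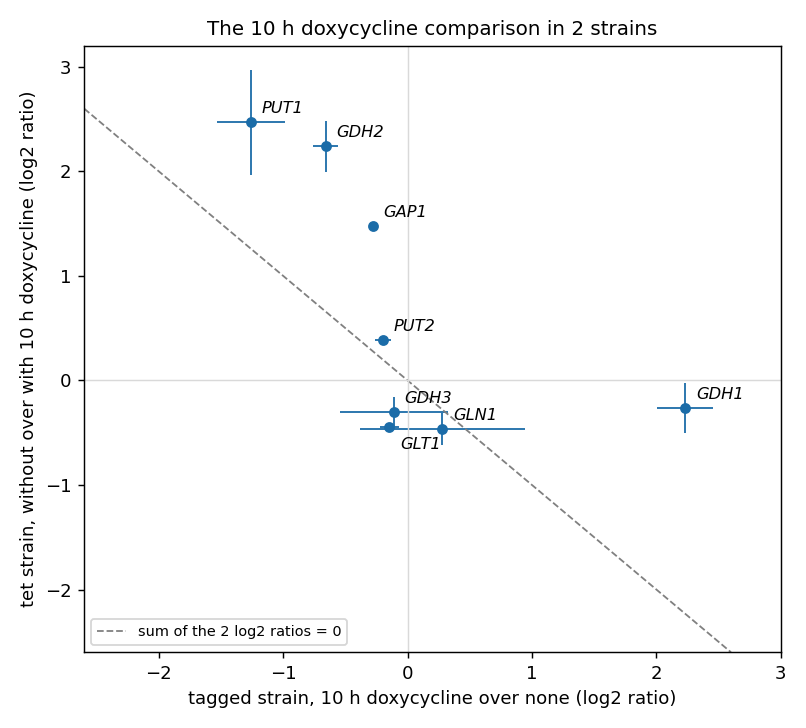
Log2 ratio of the tet strain without over with 10 h of doxycycline (y axis) against that of the tagged strain with 10 h of doxycycline over none (x axis), for the 8 genes with both; points are means of 2 arrays and bars the SD. On the dashed line the 2 ratios sum to 0; PUT1, GDH2 and GAP1 lie above it at the left and GDH1 lies above it at the right, at 2.23 and -0.26.

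Other genes of nitrogen use were read beside the 10. Of 18 such genes (permeases and enzymes for GABA, allantoin, urea, arginine, asparagine and other amino acids, and the ammonium permeases MEP1 and MEP3), 13 were measured on both arrays in the tet strain over its parent, with a median of 0.16, 8 higher and 5 lower. The highest were UGA1 (0.90 ± 0.31), the GABA transaminase gene, and UGA2 (0.76 ± 0.11), of the next step, which yields succinate. None of the 10 tested passed (limma, adjusted p = 1.00 for both). Without over with doxycycline UGA1 (1.31 ± 0.08) and the amino acid permease gene AGP1 (1.15 ± 0.23) were highest of 14. In the deletion the list had a median of -0.37, with 12 of 16 lower. The 5 of them on chromosome IX, DAL1, DAL2, DAL3, DAL4 and DAL7, of allantoin use, were all lower, with DAL1 (-1.39 ± 0.02) and DAL7 (-0.86 ± 0.62) the lowest. Without these 5 the median was -0.08, with 7 of 11 lower.

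With doxycycline in the tagged strain the same list had medians of 0.07 at 4 h and 0.03 at 10 h, over 9 genes each. DIP5, the permease gene for glutamate and aspartate, fell at 10 h to -2.90 and -3.00 (-2.95 ± 0.07; limma, adjusted p = 5.34e-09). It was the only one of 7 tested that passed, against 5.54% of all ORFs tested that passed as lower and 5.29% as higher. MEP3, an ammonium permease gene, stood at 1.22 and 0.80 (1.01 ± 0.30; adjusted p = 0.0807). At 4 h AGP1 (0.95 ± 0.22) and MEP1 (0.64 ± 0.21) were highest. Permease genes thus went both ways at 10 h, with DIP5, PUT4 and GAP1 (-0.28 on each) below 0 on both arrays and MEP3 and AGP1 (0.68 and 0.40) above it. DAL4 lay on either side of 0, at 0.23 and -0.17, and MEP1 was at -0.41 on the 1 array that measured it.

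The regulators of these genes had few values in the control comparisons, and none of the 1 or 2 testable ones passed. PUT3, which encodes the activator of PUT1 and PUT2, was the lowest regulator in the deletion, at -0.87 and -0.48 (-0.68 ± 0.28). It was also the lowest in the tet strain over its parent, at -0.58 and -0.17 (-0.38 ± 0.29), and without over with doxycycline, at -1.07 and -0.32 (-0.70 ± 0.53). After 4 h of doxycycline its arrays lay on either side of 0, at -1.23 and 0.26. In each of these comparisons the Exp 1 array was the lower one, and same-numbered arrays share dye orientation. By the first column PUT3 was also the lowest in the tagged strain over wild type (-0.74). By the second column it was at 0.74 and the highest of the 4 regulators measured. The GATA activator gene GAT1 stood at -0.25 ± 0.11 in the tet strain over its parent and at 0.55 ± 0.24 after 10 h of doxycycline (limma, adjusted p = 0.468). Median values over the regulators were -0.09 in the deletion, -0.20 in the tet strain over its parent and -0.16 without over with doxycycline, from 7 to 9 of 11 genes.

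The retrograde list holds enzymes, several of which supply 2-oxoglutarate for glutamate synthesis, and regulators of the response (RTG1, RTG2, RTG3 and MKS1). Its medians were 0.02 in the deletion, 0.02 in the tet strain over its parent and -0.02 without over with doxycycline. In tagged cells they were 0.41 at 4 h, with all 4 genes measured on both arrays higher, and -0.08 at 10 h, with 3 of 6 higher. None passed at 4 h. CIT2, the peroxisomal citrate synthase gene that marks this response, was at 1.20 and 1.30 (1.25 ± 0.07; limma, adjusted p = 1.00) in the tet strain over its parent, but also at 0.57 and 0.64 (0.60 ± 0.05) in the deletion. It fell after 10 h of doxycycline, to -1.81 and -1.56 (-1.69 ± 0.17; limma, adjusted p = 0.00117), where 5.54% of all ORFs tested passed as lower. IDH2 was at 0.90 ± 0.05 there (limma, adjusted p = 0.142). The proline synthesis genes PRO1, PRO2 and PRO3 had means between -0.34 and 0.36 wherever both arrays measured them (tagged strain over wild type: 1 array). CIT2 and PUT1 (-0.29) thus had opposite signs in the deletion, while both were low in the 10 h treated tagged cells.

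Glucose-repressed genes were also low in those cells, which gives a value to set beside PUT1 and PUT4. Of 12 such genes 10 were measured on both arrays after 10 h of doxycycline and all 10 had means below 0, with a median of -1.14 and a range of -3.12 (ACS1) to -0.45, against 0.01 over all ORFs. SUC2, measured on 1 array, was at 0.11. Of the 2 that could be tested, the glycerol kinase gene GUT1 fell (-1.80 ± 0.27; limma, adjusted p = 4.64e-04) and HXK1 did not pass (-0.98 ± 0.04; adjusted p = 0.0996). Among all ORFs tested at 10 h, 5.54% passed as lower. At 4 h the list had a median of 0.08, over 9 genes. Without over with doxycycline in the tet strain its 6 measured genes ranged from -1.31 (GUT1) to 1.96 (HXK1) with a median of -0.10, and in the tet strain over its parent 4 ranged from -0.59 to 0.46. In the deletion the 9 measured had a median of -0.20. The part of glucose-repressed genes in the values of PUT1, PUT4 and GDH2 was not tested.

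**Figure D4:**
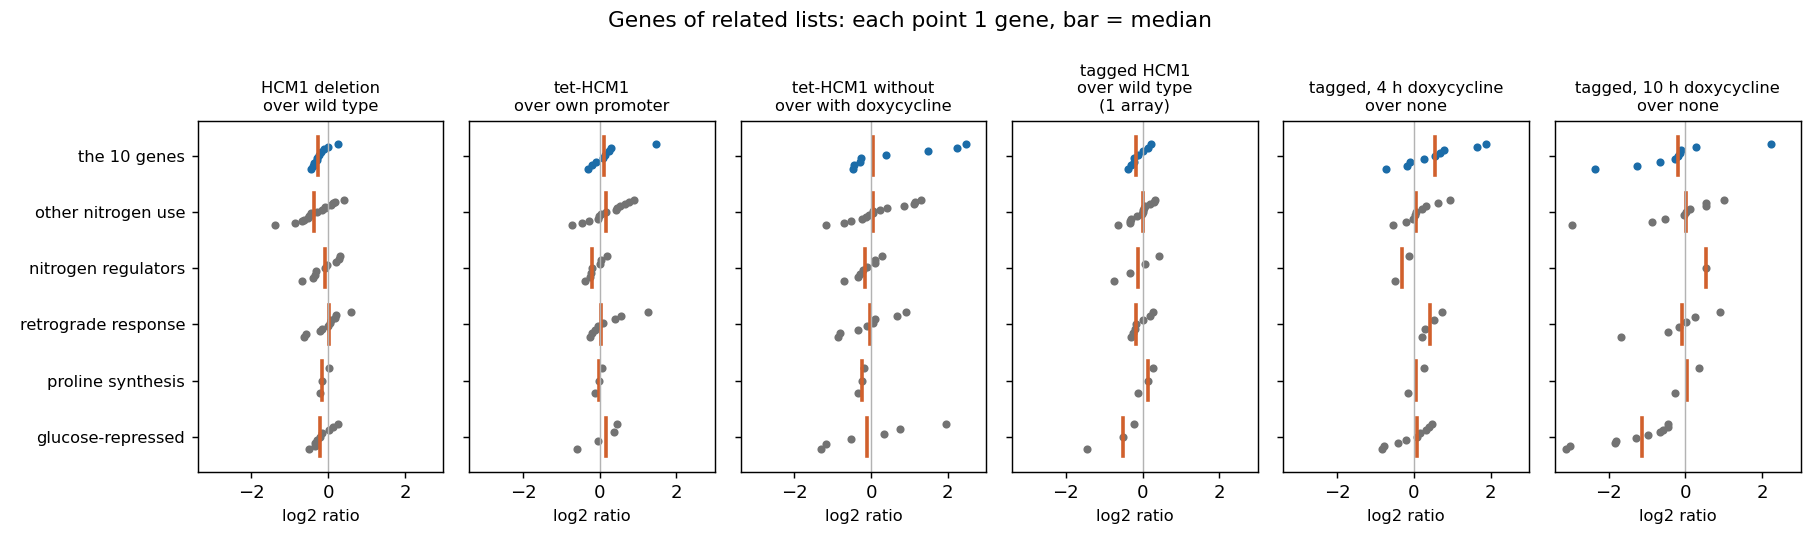
Log2 ratio (x axis) of single genes (points, means of 2 arrays, or 1 array for the tagged strain over wild type) of the 10 genes and 5 related lists (rows) in the 6 comparisons (panels), with the list median as a bar. The glucose-repressed genes measured on both arrays lie below 0 after 10 h of doxycycline, median -1.14, where the 10 genes range from -2.35 to 2.23.

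Over the 10 arrays with a value for PUT1, the ORFs with the highest Pearson correlation to it were GAC1 (r = 0.96), YER158C (0.95), MSN4 (0.95), XKS1 (0.94) and GDH2 (0.94), among 1635 ORFs with values on all of these arrays. PUT2 came at rank 32 with r = 0.87. For GDH2, over 11 arrays and 1620 ORFs, they were OM14 (0.97), BNA4 (0.97), YER158C (0.96), MSN4 (0.95) and CCC1 (0.94). GDH1 was at -0.56 with PUT1 and at -0.64 with GDH2. The arrays share strains, untreated cells and dye orientation, and arrays of 1 comparison are not independent, so these values are descriptions. They also include both arrays without over with doxycycline, the comparison in view when PUT1 and GDH2 were chosen. BNA4, of NAD synthesis, stood at 1.72 in the tet strain over its parent and at 2.29 without over with doxycycline, close in size to GDH2.

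The nearest protein-coding neighbours of the 10 genes on their chromosomes stayed under 2-fold in the tet strain where measured, but both neighbours of GDH2, RRI1 and PRR2, had no value. Of 20 neighbours, 11 were measured in the tet strain over its parent, between -0.45 and 0.43, and 13 without over with doxycycline, between -0.42 and 0.80. None of them was 2-fold changed on both arrays. Of all ORFs, 1.16% were 2-fold higher and 0.531% lower in the tet strain over its parent. Without over with doxycycline 3.2% were higher and 2.16% lower. With so few neighbours measured, a count of none is near these shares. RRN5 and DPH6, on either side of PUT1, stood at -0.34 and -0.17 without over with doxycycline. After 10 h of doxycycline 2 of the 6 measured were 2-fold lower on both arrays, against 6.66% of all ORFs. These were ALD4, next to GDH1, at -2.02, and BDH2, next to GDH3, at -2.47. None was 2-fold higher, against 2.81% of all ORFs. GDH1 and its neighbour ALD4 thus had opposite signs there.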

How the data were processed

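The deposited values are log2 ratios per ORF that the authors had normalized. The sources used here give no normalization method, software or genome build. Per the labels, Cy5 and Cy3 were coupled to the RNA's labelled copies indirectly, and each array's ratio runs numerator over denominator in the dye order given. The log base was read from the values: raising 2 to each value gave a multiple of 0.001, within its rounding, for 100% of them in 11 of 12 columns; the other, the tagged Exp 1 column (12.5%), mirrors one of those. Each array was centred on its median and the 2 arrays of a comparison were averaged, ORFs needing both.

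Tests used limma 3.58.1 in R 4.3.3 (lmFit, eBayes) on 1 value per comparison, with the 3 control comparisons as residual around 0 (the other 2 when a control was tested), at least 2 control values per ORF and Benjamini-Hochberg adjustment; an adjusted p below 0.05 passed. The script was tested on simulated data. Deviations of same-numbered arrays, which share dye orientation, correlated with r = 0.56 to 0.68 over 10 pairs of comparisons, so a replicate block was fitted on single arrays. All 10 genes matched the RefSeq gene table (R64), used for names and neighbours only. The 10 genes and all lists, the use of 1 tagged column, and the rule for named genes (the 10, HCM1, the 2 highest and 2 lowest per list and comparison, and the 5 most correlated with PUT1 and GDH2) were chosen with earlier results of these data known; the neighbouring genes named were chosen after their values were seen.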

Additional observations from a re-analysis of the deposited data

Results flagged for a closer look

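PUT1, PUT2 and GAP1 lay above 0 on both arrays of tagged cells at 4 h of doxycycline and below 0 on both at 10 h. The 10 h minus 4 h difference was -1.94 for PUT1, -0.46 for PUT2 and -1.92 for GAP1 (log2). Both times have untreated tagged cells in the denominator, and the differences were not tested. GLT1 lay above 0 with 10 h of doxycycline over none in the tet strain and below 0 in the tagged strain, on both arrays of each, a difference of 0.59 that was not tested.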

How the results depend on the processing

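Of 252 alternative values of single genes among the 10, 218 stayed within the spread of the arrays and 34 did not. With 1 replicate left out a value cannot leave that spread, so those settings add to the 218 by arithmetic. No called value changed sign, and values that were not called were not checked for it. With each array as its own sample and no replicate block, 204 ORFs passed in the deletion, 285 in the tet strain over its parent, 1010 without over with doxycycline, 1 in the tagged strain over wild type, 365 at 4 h and 859 at 10 h; with the replicate block 889, 960, 2069, 4, 995 and 1364 did. Against 0 in the tet strain over its parent, 5 passed without the 10 h control in the residual, and 1 each without the 4 h control, with 1 control value enough and with a robust fit. Against 1 without over with doxycycline, 95 passed without the 10 h control, and 0 with values as deposited, the tagged columns averaged, no tagged control, a robust fit or only ORFs on all 12 arrays. At 4 h 69 passed without the 10 h control, against 0. At 10 h, against 178, 10 passed with the tagged columns averaged, 100 without the tagged control and 356 without the 4 h control. Leaving out one replicate's arrays gave 0 to 1 calls in the tet strain over its parent, 0 to 2 without over with doxycycline and 127 to 136 at 10 h. The settings without the 4 h control, with 1 control value enough and without chromosome IX genes in the nitrogen use list were chosen after seeing the data.

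The median of the 10 genes ranged from -0.28 to -0.23 in the deletion without 1 replicate, from -0.0064 to 0.18 in the tet strain over its parent, from 0.10 to 0.14 without over with doxycycline, from 0.38 to 0.42 at 4 h and from -0.28 to -0.19 at 10 h. With values as deposited it was 0.031 without over with doxycycline and 0.62 at 4 h, by the second tagged column 0.16 in the tagged strain, and over ORFs on all 12 arrays -0.33 in the deletion, 0.011 in the tet strain over its parent and 0.24 at 4 h (6 genes). The count of genes at least 2-fold lower was 0 to 1 at 4 h without 1 replicate and 0 at 10 h on ORFs on all 12 arrays, which leave out PUT1 and PUT4. The cause of the other differences was not tested. Raw intensities, and so signal over background, were not used here.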
